A study of Mus musculus with 8 samples.

Results

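The mitochondrial ribosomal proteins of the mouse were followed in kidney proximal tubules after cisplatin. Members were all gene rows whose Ensembl identifier maps to a symbol of the form Mrpl or Mrps followed by a number, in all 8 FPKM columns (fragments scaled to gene length and to mapped depth). This gave 62 of the 21874 rows of the gene table. Of these, 61 reached 1 FPKM in at least 2 of the 8 libraries and were tested; the remaining member, Mrps23 of the small subunit, was listed at exactly 0 in all 8 libraries, which can be a failed estimate.

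Mitochondrial ribosomes translate the few proteins encoded by mitochondrial DNA, which are core subunits of the respiratory chain and ATP synthase. Their protein components are encoded in the nucleus, made in the cytosol and imported, and assemble with mitochondrially encoded ribosomal RNA into a large subunit, which joins amino acids, and a small subunit, which reads the mRNA. Some components descend from bacterial ribosomal proteins and others exist only in mitochondria. Proximal tubule cells rely on mitochondrial respiration to drive reabsorption and are a main site of cisplatin injury.

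All groups were of male C57BL/6 mice, and the injury was induced by an intraperitoneal dose of 30 mg/kg cisplatin. The groups were 0 h, for which no dose is listed, 24 h, 48 h and 72 h, with 2 libraries each, named a and b after their columns. RNA came from proximal tubular cells isolated from renal cortex, ribosomal RNA was depleted, and the labels name a library kit for small RNA. The duplicates are described as biological, with nothing on whether each was a different mouse; p-values therefore measure only the spread among these libraries, which may be technical. The 0 h libraries are the control of every comparison with 0 h, so the 3 comparisons with 0 h are not independent of each other.

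The tubule label was checked against markers. The 8 proximal tubule markers with a row summed to 4090 and 4453 FPKM at 0 h, 1939 and 1668 after 24 h, 1105 and 1171 after 48 h, and 523 and 534 after 72 h. None of them was at 0 in every library, and without the row that spans another coding gene their sum was 3660 and 4031 FPKM at 0 h and 432 and 442 after 72 h. Over the same times, 4 of 5 tubular injury markers had a row, and their sum was 25.9 and 26.0 FPKM at 0 h, 185 and 178 after 24 h, 359 and 373 after 48 h, and 926 and 944 after 72 h. Without the injury row that spans another gene, the sum was 6.89 and 6.36 FPKM at 0 h and 446 and 453 after 72 h. Neutrophil markers (5 of 5 with a row) summed to 1.04 and 1.21 FPKM at 0 h, 27.5 and 26.3 after 24 h, 25.9 and 31.6 after 48 h, and 75.4 and 72.9 after 72 h. Macrophage and monocyte markers (4 of 6) summed to 32.3 to 43.5 FPKM up to 48 h and to 129 and 132 after 72 h. Fibroblast and smooth muscle markers (3 of 3) summed to 16.6 to 20.7 FPKM up to 24 h, 35.9 and 37.6 after 48 h, and 77.7 and 79.0 after 72 h. Endothelial markers (4 of 4) summed to 42.7 and 40.3 FPKM at 0 h and 76.2 and 81.4 after 72 h, podocyte markers (4 of 4) to 25.5 and 21.9 at 0 h and 46.1 and 47.3 after 72 h, and principal cell markers (3 of 3) to 79.5 and 68.5 at 0 h and 157 and 169 after 72 h. Lower sums after 72 h were seen for other tubule segments. Distal convoluted tubule markers (3 of 3) summed to 294 and 272 FPKM at 0 h and 49.99 and 52.7 after 72 h, thick ascending limb markers (2 of 3) to 232 and 238 at 0 h and 117 and 117 after 72 h, and intercalated cell markers (3 of 3) to 31.2 and 31.5 at 0 h and 10.4 and 10.1 after 72 h. Erythroid markers (2 of 4) had 373 and 381 FPKM at 0 h and 4.81 and 4.26 after 72 h, nearly all of it in a row that spans another gene; the remaining row had 3.41 and 2.77 FPKM at 0 h and 0.0204 and 0.0750 after 72 h. Of the lymphocyte markers, the Cd79a row spans many other genes, and the other 3 summed to 0.576 FPKM at most. These sums also differ between the times, and their part in the members' changes was not tested. In tissue RNA of this kind, fewer cells of a type and less RNA per cell cannot be told apart.

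Deposited FPKM values totalled 448667 and 452114 at 0 h and 314173 to 375186 in the 6 later libraries, so a value that keeps its share of a library is lower in FPKM after cisplatin. Rows of mitochondrially encoded genes took 20.2% to 25.5% of a library's total. Because of this, counts are given for FPKM as deposited and for 4 other scalings: an equal median, quantile normalisation, and a fixed total with and without the mitochondrially encoded rows. Depth per library is unknown from FPKM, and so are counting intervals.

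Many gene rows cover more than 1 gene, which limits what a member's value measures. Of the 61 tested members, 23 had a row that overlapped no other protein-coding gene of the RefSeq annotation, 28 overlapped part of one, and 10 spanned one. The spanning rows were those of Mrpl1, Mrpl10, Mrpl2, Mrpl20, Mrpl22, Mrpl30, Mrps24, Mrps30, Mrps34 and Mrps6. The Mrps6 row also holds the myo-inositol transporter gene Slc5a3, the Mrps34 row holds the nucleoside diphosphate kinase gene Nme3, and the Mrpl20 row holds Ccnl2, Aurkaip1 and Ankrd65. The Mrpl23 row overlaps no other coding gene but spans the noncoding H19. A further 16 protein-coding genes and 6 pseudogenes of the same symbol pattern had no row, and all 16 coding genes lay inside the row of another gene. These include Mrpl12, whose protein forms the factor-binding stalk of the large subunit and lies within the Slc25a10 row, Mrps18b, within the rows of Atat1 and H2-T22, and Mrps28, within the Tpd52 row. Their values cannot be separated from those rows and are not given.

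At 0 h the tested members had median levels of 20.8 and 20.4 FPKM in libraries a and b. FPKM is per length of the deposited row model, which can include other genes. The order given here is therefore one of rows, and not of the member genes alone. The highest mean over the 8 libraries belonged to Mrpl20, with 114 and 113 FPKM at 0 h, 126 and 118 after 24 h, 96.5 and 96.5 after 48 h, and 99.6 and 101 after 72 h. It was followed by Mrps6, Mrps24, Mrps14, Mrps33 and Mrps30, of which only the Mrps14 and Mrps33 rows span no other coding gene. Mrps14, a small subunit protein with a bacterial counterpart, had 45.5 and 47.9 FPKM at 0 h and 47.9 to 62.8 later; its row partly overlaps another gene. The lowest tested rows were Mrps34 at 1.27 to 4.10 FPKM, Mrpl36 at 0.915 to 10.7 FPKM and Mrps2 at 3.61 to 7.18 FPKM. Mrpl36 varied within groups, with 10.7 and 2.16 FPKM in the 48 h libraries a and b, and passed no test.

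Summed over the 62 members, FPKM stood at 1646 and 1656 at 0 h, 1592 and 1452 after 24 h, 1289 and 1283 after 48 h, and 1360 and 1355 after 72 h. All 6 later libraries were below both 0 h libraries. As a share of the library's FPKM total the order was different, with 0.367% and 0.366% at 0 h, 0.424% and 0.416% after 24 h, 0.410% and 0.403% after 48 h, and 0.387% and 0.383% after 72 h. All 6 later shares were above both 0 h shares, but this did not hold for every set of rows. Over the 27 members whose row spans no other coding gene and reaches at most 2000 bases past its own gene, the share was 0.140% and 0.138% at 0 h, 0.152% and 0.144% after 24 h, 0.135% and 0.134% after 48 h, and 0.127% and 0.127% after 72 h. Those shares were above the 0 h pair at 24 h and below it later. Of a total without mitochondrially encoded rows, all members took 0.492% and 0.487% at 0 h and 0.494% and 0.488% after 72 h, and these pairs overlap. The median member was at 21.3 and 18.7 FPKM after 24 h, 16.8 and 17.3 after 48 h, and 17.2 and 17.2 after 72 h.

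**Figure D1:**
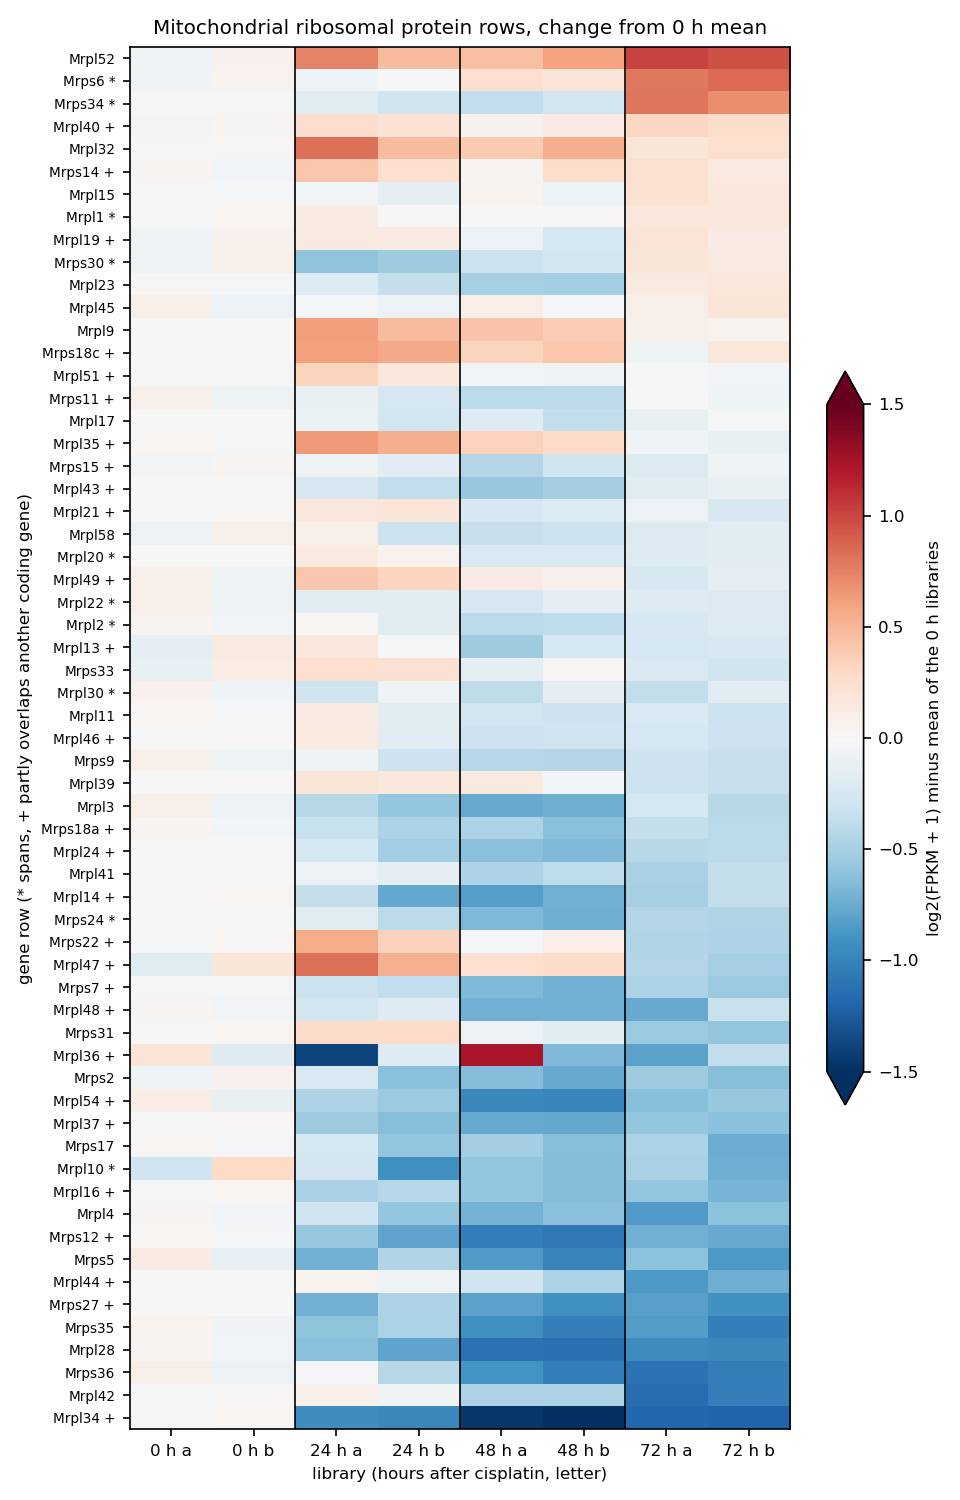
Change of each of the 61 tested member rows in each library, as log2(FPKM + 1) minus the mean of the 0 h libraries, with blue for lower and red for higher; libraries run from 0 h at the left to 72 h at the right, and members are sorted by their 72 h change. An asterisk marks a row that spans another coding gene and a plus sign one that overlaps part of one; most of the lower rows are blue from 24 h on, with Mrpl34 at the foot (-1.19 at 72 h) and Mrpl52 at the top (0.98 at 72 h).

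On the deposited scale more mitochondrial ribosomal protein rows fell than rose at every time, whereas with a fixed total more rose than fell at every time. With a fixed total, 39.3% of all rows tested were called higher and 26.5% lower at 24 h. These shares were 49.0% and 24.1% after 48 h, and 53.3% and 21.4% after 72 h. On that scaling the 26 tested rows that keep to within 2000 bases of their own gene gave 8 higher and 4 lower at 24 h. They gave 5 and 9 after 48 h, and 5 and 10 after 72 h. On each of the 5 scalings the members' median lay below that of all rows at 48 and 72 h, and most so at 72 h. Calls are limma tests on log2(FPKM + 1) with Benjamini-Hochberg adjusted p under 0.05 over all 10757 rows tested, and fold changes are on that scale. At 24 h against 0 h, 13 of the 61 members were called higher, where 25.8% of all rows tested were, and 21 were called lower, where 40.0% were. The members' median log2 change was -0.17 and that of all rows -0.12. With a fixed total 27 were called higher and 5 lower, where 39.3% and 26.5% of all rows were. With an equal median 18 and 19 were, where 31.2% and 34.1% of all rows were, and after quantile normalisation 21 and 11, where 30.1% and 32.9% were. The balance of directions at 24 h therefore depended on the scaling, and the members' median differed from that of all rows by -0.05 to 0.07.

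At 48 h against 0 h, 6 members were called higher, where 28.5% of all rows were, and 38 were called lower, where 42.1% were. Their median log2 change was -0.37 and that of all rows -0.13. The numbers higher and lower were 12 and 29 with an equal median, where 34.9% and 36.3% of all rows were called. After quantile normalisation they were 17 and 24, where 34.2% and 35.0% were, and with a fixed total 23 and 13, where 49.0% and 24.1% were. The members' median differed from that of all rows by -0.24 on the deposited scale and by -0.14 to -0.23 on the other 4.

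At 72 h against 0 h, 4 members were called higher, where 37.6% of all rows were, and 33 were called lower, where 32.4% were. The members' median log2 change was -0.29, while that of all rows was 0.07. With an equal median 4 were higher and 39 lower, where 34.8% and 35.5% of all rows were. After quantile normalisation 13 and 28 were, where 34.7% and 34.2% of all rows were, and with a fixed total 20 and 15, where 53.3% and 21.4% were. The members' median differed from that of all rows by -0.35 as deposited and by -0.22 to -0.38 on the other 4 scalings. Over the 23 rows that overlap no other coding gene, 1 was called higher and 15 lower at 72 h, with a median log2 change of -0.33.

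Members called in the same direction under all 5 scalings were fewer. At 24 h these were 13 higher and 5 lower, where 24.7% and 26.3% of all rows were; at 48 h 6 and 13, where 26.8% and 23.9% were; and at 72 h 4 and 15, where 30.4% and 21.1% were. The 5 members lower at 24 h on every scale were Mrpl28, Mrpl34, Mrpl37, Mrps12 and Mrps30. Of these, Mrpl28, Mrpl34, Mrpl37 and Mrps12 were lower at all 3 times on every scale.

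**Figure D2:**
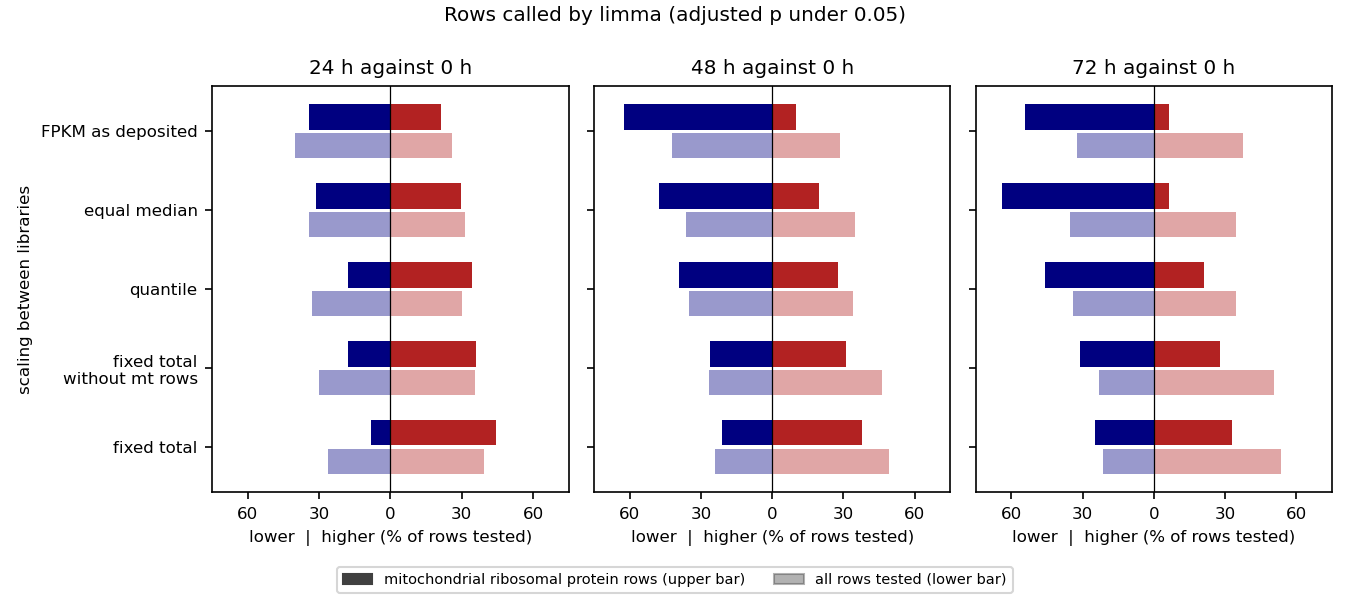
Share of rows called lower (blue, to the left) and higher (red, to the right) in percent of the rows tested, for 24, 48 and 72 h against 0 h under 5 scalings; in each pair the dark upper bar is the 61 mitochondrial ribosomal protein rows and the pale lower bar all 10757 rows. As deposited, 33 of the 61 members were called lower at 72 h and 4 higher, and with a fixed total 15 and 20.

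Calls at the 3 times fell into a few patterns. Lower at 24, 48 and 72 h were 18 members, where 26.3% of all rows tested were lower at all 3. A further 10 were lower at 48 and 72 h but not called at 24 h, where 3.80% of all rows were. Another 6 were lower at 48 h alone, where 2.48% of all rows were, and 8 were not called at any time, where 12.8% were. These patterns are of calls on the deposited scale. None of the 6 was called lower at 48 h under all 5 scalings. All of them but Mrps11 lost the call when 1 or another library was left out. Of the 10, only Mrps36 was called lower at 48 h under all 5 scalings. Mrpl11, Mrpl2, Mrpl20, Mrpl46 and Mrps9 lost a call at 48 or 72 h when 1 or another library was left out. Higher at 24 h and lower at 72 h were 4 members, where 0.725% of all rows were. Mrpl52 was the only member higher at all 3 times, where 20.0% of all rows were.

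Among the large subunit proteins with a bacterial counterpart, Mrpl34 had the largest fall at every time. Its row, chr8:71464670-71466160 in the mm10 build, partly overlaps Abhd8. Mrpl34 stood at 53.5 and 55.9 FPKM at 0 h, 28.2 and 27.6 after 24 h, 19.2 and 18.4 after 48 h, and 23.6 and 23.2 after 72 h. All later libraries lay well under the 0 h pair, with the lowest values at 48 h. The log2 fold changes were -0.95 at 24 h (SE 0.06, adjusted p = 3.4e-06), -1.49 at 48 h (adjusted p = 1.39e-07) and -1.19 at 72 h (adjusted p = 3.78e-07). On the other scalings the smallest falls were -0.65 at 24 h, -1.02 at 48 h and -0.86 at 72 h.

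Mrpl28, of the same class and with a row that overlaps no other coding gene (chr17:26123502-26126968), had 42.8 and 40.4 FPKM at 0 h, 26.6 and 23.6 after 24 h, 18.7 and 18.5 after 48 h, and 21.1 and 20.8 after 72 h. It fell at each time, with log2 fold changes of -0.71, -1.12 and -0.96 (SE 0.08; adjusted p = 4.31e-05, 1.77e-06 and 4.3e-06). No group overlapped another, and the order from high to low was 0 h, 24 h, 72 h and 48 h.

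Mrps12, the small subunit protein at the decoding centre, had 29.0 and 27.8 FPKM at 0 h, 18.9 and 16.0 after 24 h, 13.3 and 13.0 after 48 h, and 16.8 and 16.4 after 72 h. Its row on chromosome 7 partly overlaps Sars2, which encodes a mitochondrial aminoacyl-tRNA synthetase. The log2 fold changes were -0.68, -1.06 and -0.74 (SE 0.09; adjusted p = 0.000127, 5.74e-06 and 5.72e-05). Mrps5, also of the small subunit, had 19.2 and 16.1 FPKM at 0 h, 10.2 and 12.5 after 24 h, 9.32 and 8.37 after 48 h, and 11.1 and 9.20 after 72 h, with log2 fold changes of -0.59, -0.92 and -0.74.

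Falls of like size were seen in proteins found only in mitochondria. Mrps35 of the small subunit, with a row that overlaps no other coding gene, had 27.2 and 25.4 FPKM at 0 h, 16.9 and 18.7 after 24 h, 13.4 and 12.4 after 48 h, and 14.2 and 12.5 after 72 h (log2 fold changes -0.54, -0.97 and -0.93). Mrps27, a small subunit protein with pentatricopeptide repeats, had 13.2 and 13.4 FPKM at 0 h, 7.68 and 9.39 after 24 h, 7.20 and 6.56 after 48 h, and 7.14 and 6.64 after 72 h (-0.59, -0.86 and -0.86). The large subunit proteins Mrpl37 and Mrpl54 fell by 0.59 and 0.51 on the log2 scale at 24 h, by 0.76 and 0.97 after 48 h, and by 0.60 and 0.60 after 72 h. For all of these, both libraries of each later time lay below both 0 h libraries. Of these and Mrps5, only Mrpl37 was called lower at 24 h under all 5 scalings. At 48 and 72 h all of them were.

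**Figure D3:**
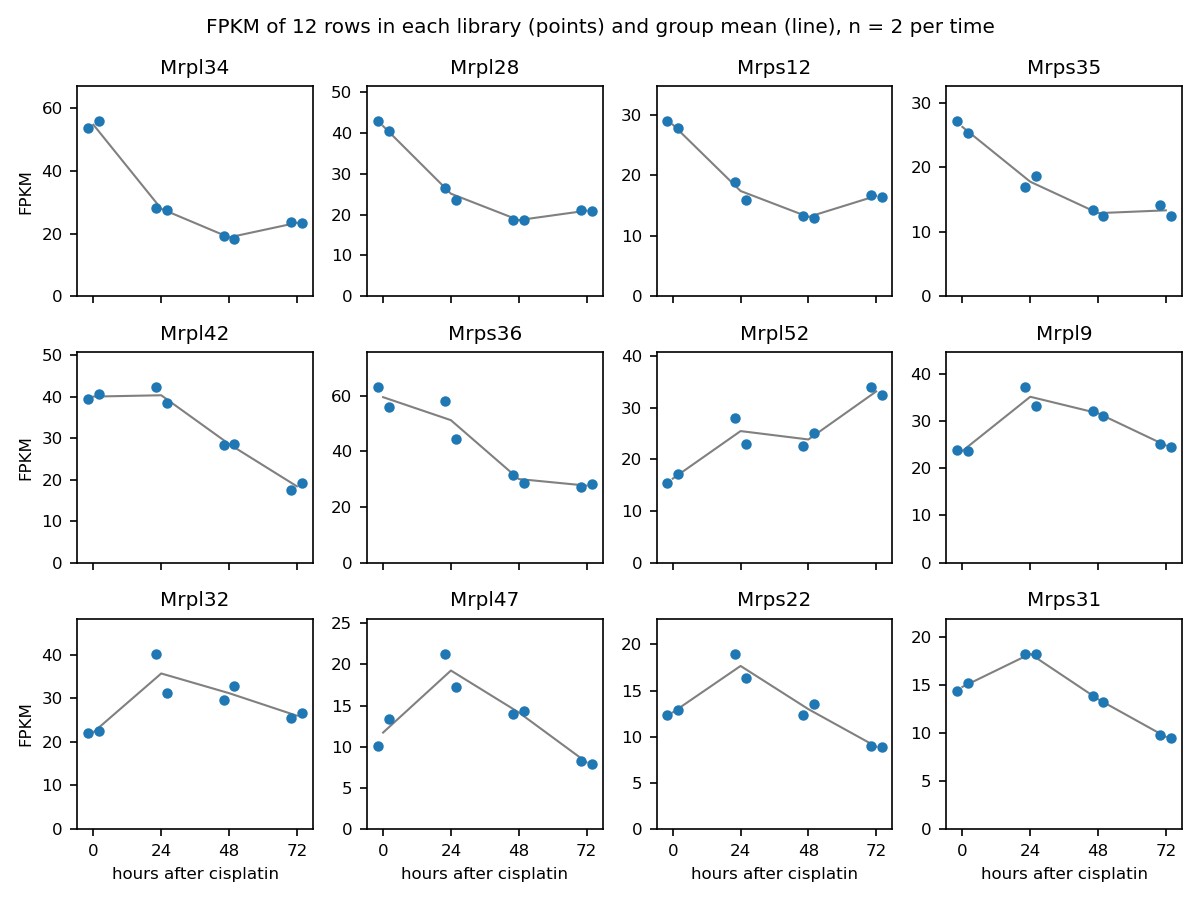
FPKM of 12 members in each library against hours after cisplatin, with points for libraries a and b and a line through the group means (2 libraries per time). The top row falls by 24 h, Mrpl42 and Mrps36 are called lower from 48 h on, Mrpl52 stays above its 0 h values, and Mrpl47, Mrps22 and Mrps31 are highest at 24 h and lowest at 72 h.

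Other members were not called at 24 h and fell later. Mrpl42, a large subunit protein specific to mitochondria, had 39.4 and 40.7 FPKM at 0 h, 42.3 and 38.5 after 24 h, 28.5 and 28.7 after 48 h, and 17.6 and 19.2 after 72 h. The 24 h libraries lay on both sides of the 0 h pair, and the 72 h libraries were the lowest of all. At 72 h its log2 fold change was -1.08 (SE 0.07, adjusted p = 1.68e-06), and -0.76 or below on each other scaling. At 48 h it was -0.47 (adjusted p = 0.000384), a direction that did not hold with a fixed total (0.03).

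Mrpl44, a large subunit protein related to ribonuclease III, followed the same course with 20.8 and 20.5 FPKM at 0 h, 21.5 and 19.6 after 24 h, 16.6 and 14.5 after 48 h, and 10.9 and 11.98 after 72 h. Its log2 fold change at 72 h was -0.80 (SE 0.09, adjusted p = 4.2e-05), and at 48 h -0.39, against 0.10 with a fixed total. Mrps36 carries a ribosomal protein symbol but is now known as a subunit of the 2-oxoglutarate dehydrogenase complex of the citric acid cycle. Mrps36 had 62.9 and 55.9 FPKM at 0 h, 58.1 and 44.3 after 24 h, 31.4 and 28.7 after 48 h, and 27.1 and 28.3 after 72 h, and fell at 48 h (-0.96, SE 0.12) and 72 h (-1.07). Library b at 24 h was below both 0 h libraries and library a between them. Without Mrps36, 6 of the 60 remaining members were higher and 37 lower at 48 h, where 28.5% and 42.1% of all rows were. At 72 h 4 were higher and 32 lower, where 37.6% and 32.4% of all rows were.

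A smaller number rose, and Mrpl52 was the only one with a row free of other coding genes to be higher at 72 h. Mrpl52, a mitochondrion-specific protein of the large subunit (chr14:54425540-54430679), had 15.5 and 17.1 FPKM at 0 h, 28.0 and 23.0 after 24 h, 22.5 and 25.2 after 48 h, and 33.9 and 32.4 after 72 h. All 6 later libraries were above both 0 h libraries, and the 72 h pair was the highest. Its log2 fold changes were 0.61, 0.52 and 0.98 (SE 0.10; adjusted p = 0.00074, 0.00159 and 2.95e-05), and no scaling gave less than 0.61, 0.52 and 0.91.

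Mrpl32, Mrpl9, Mrpl35 and Mrps18c, all with a bacterial counterpart, were called higher at 24 and 48 h and not called at 72 h. Mrpl9 had 23.8 and 23.5 FPKM at 0 h, 37.1 and 33.1 after 24 h, 32.1 and 31.1 after 48 h, and 25.1 and 24.5 after 72 h. Its log2 fold changes were 0.55 at 24 h (SE 0.07, adjusted p = 0.000168) and 0.40 at 48 h (adjusted p = 0.000914), and its change at 72 h, 0.07 and up to 0.41 on another scaling, did not pass as deposited. Mrpl32, which must be cleaved by a protease of the inner membrane before it joins the ribosome, had 22.0 and 22.4 FPKM at 0 h, 40.2 and 31.2 after 24 h, 29.5 and 32.8 after 48 h, and 25.4 and 26.6 after 72 h. It rose by 0.65 at 24 h and by 0.47 at 48 h on the log2 scale. At 72 h both its libraries were still above both 0 h libraries, with a log2 fold change of 0.22 that did not pass (adjusted p = 0.11) and that reached 0.57 on another scaling.

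Mrpl35 and Mrps18c rose by 0.59 and 0.59 at 24 h and by 0.31 and 0.37 at 48 h. Both rows reach into neighbouring genes, Reep1 for Mrpl35 and Helq and Abraxas1 for Mrps18c. At 24 h all 13 rises kept their call under each scaling. Of these, 9 also kept it whichever library was left out, and the others were Mrpl40, Mrpl51, Mrps14 and Mrps33. Leaving out a library of either group removed the call of Mrpl51 (0.25, against 0.23 and 0.27 without 0 h libraries a and b and 0.17 without 24 h library a), of Mrpl40 (0.24, against 0.20 without 0 h library a and 0.21 without 24 h library a) and of Mrps14 (0.33, against 0.30 without 0 h library b and 0.25 without 24 h library a).

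The other rises at 72 h were in rows shared with another gene. Mrps6 had 44.2 and 47.8 FPKM at 0 h, 44.0 and 45.7 after 24 h, 55.0 and 52.3 after 48 h, and 80.4 and 83.8 after 72 h, a log2 fold change of 0.82 at 72 h (SE 0.07, adjusted p = 5.55e-06). Its row is 12086 bases long in the deposited model and includes Slc5a3, so which gene moved cannot be read from it. Mrps34 had 1.96 and 1.91 FPKM at 0 h, 1.58 and 1.38 after 24 h, 1.27 and 1.41 after 48 h, and 4.10 and 3.74 after 72 h, in a row that also holds Nme3. Its log2 fold change was -0.33 at 48 h (adjusted p = 0.0151), and -0.02 with a fixed total, and 0.75 at 72 h (SE 0.10, adjusted p = 0.000126). The 48 h call of Mrps34 was lost without 0 h library a (-0.31), 0 h library b (-0.34) or 48 h library a (-0.28). Mrpl40, in a row that partly overlaps Hira, had 15.5 and 16.4 FPKM at 0 h and 20.0 and 19.3 after 72 h (0.28, adjusted p = 0.00617).

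Among the members higher at 24 h and lower at 72 h were 3 mitochondrion-specific small subunit proteins, Mrps22, Mrps31 and Mrps33, and the large subunit protein Mrpl47. Mrps31, with a row that overlaps no other coding gene, had 14.5 and 15.2 FPKM at 0 h, 18.3 and 18.3 after 24 h, 13.9 and 13.2 after 48 h, and 9.77 and 9.48 after 72 h. The 24 h pair was above, and the 72 h pair below, every other library. Its log2 fold change was 0.28 at 24 h (adjusted p = 0.00707) and -0.58 at 72 h (adjusted p = 9.1e-05), and 72 h against 24 h gave -0.86 (SE 0.07, adjusted p = 1.61e-05).

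Mrps22, whose human counterpart is mutated in a mitochondrial disease, had 12.3 and 12.9 FPKM at 0 h, 19.0 and 16.3 after 24 h, 12.4 and 13.6 after 48 h, and 8.95 and 8.91 after 72 h (0.45 at 24 h, -0.46 at 72 h). Mrpl47 had 10.1 and 13.4 FPKM at 0 h, 21.3 and 17.2 after 24 h, 14.0 and 14.3 after 48 h, and 8.27 and 7.96 after 72 h (0.68 at 24 h, -0.47 at 72 h). The call of Mrpl47 at 72 h was lost without 0 h library b (-0.28) or 72 h library b (-0.44). Mrps33 had 47.0 and 54.8 FPKM at 0 h, 60.5 and 59.7 after 24 h, 45.6 and 51.3 after 48 h, and 43.1 and 40.9 after 72 h (0.24 at 24 h, -0.27 at 72 h, which was 0.08 with a fixed total).

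The Mrps33 call at 24 h was lost without 0 h library a (0.13), either 24 h library (0.23 without a and 0.25 without b) or either 72 h library (0.24), and the one at 72 h without 0 h library b (-0.16) or either 72 h library (-0.30 without a and -0.23 without b). Mrps22 and Mrpl47 kept their direction at both times on every scaling. Their calls at 24 h held under all 5 scalings, but those at 72 h did not. Their rows partly overlap Copb2, for Mrps22, and Actl6a and Ndufb5, for Mrpl47.

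Successive times were also compared with each other. At 48 h against 24 h, 2 members were called higher, where 11.2% of all rows were, and 24 lower, where 17.2% were. The count called in either direction was 26, where 28.3% of all rows were called. It was 12 with a fixed total, where 34.5% of all rows were called. Fewer members were called without 24 h library a or either 48 h library. The share of all rows called in those fits is not given here. The largest falls in this step were those of Mrps36 (-0.74), Mrpl34 (-0.55) and Mrpl48 (-0.48, adjusted p = 0.0198), a large subunit protein whose call was lost without any of the 4 libraries compared (-0.45 to -0.52). The 2 rises, of Mrps30 (0.27) and Mrps6 (0.25), are in rows that span other genes, and both were lost without 24 h library a (0.23 and 0.23) or either 48 h library.

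At 72 h against 48 h, 14 members were called higher, where 37.2% of all rows were, and 10 lower, where 11.3% were. With an equal median 4 were higher and 17 lower, where 21.4% and 23.1% of all rows were, and with a fixed total 7 and 12, where 25.8% and 18.8% were. The 10 falls held under all 5 scalings, where 11.2% of all rows did, and included Mrpl47 (-0.74), Mrpl42 (-0.61) and Mrps22 (-0.49). The largest rises were those of Mrps34 (1.07), Mrpl23 (0.66) and Mrps6 (0.60). Mrpl23, a protein at the exit of the peptide tunnel, had 26.7 and 26.2 FPKM at 0 h, 22.9 and 20.5 after 24 h, 18.5 and 18.3 after 48 h, and 29.1 and 30.0 after 72 h, in the row that also spans H19. Over the longer step of 72 h against 24 h, 6 were higher, where 37.7% of all rows were, and 23 lower, where 19.8% were.

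By subunit, 8 of the 42 large subunit members were called higher (19.0%) and 13 lower (31.0%) at 24 h, where 25.8% and 40.0% of all rows were, 4 and 25 after 48 h, and 2 and 20 after 72 h. Of the 18 small subunit members, 5 were higher and 8 lower at 24 h, 2 and 12 after 48 h, and 2 and 12 after 72 h. Of all rows tested, 28.5% were called higher at 48 h and 37.6% at 72 h. The median log2 changes at 24, 48 and 72 h were -0.10, -0.30 and -0.26 for the large subunit and -0.22, -0.42 and -0.45 for the small subunit. At 48 h 59.5% of the large and 66.7% of the small subunit members were lower, where 42.1% of all rows were, and at 72 h 47.6% and 66.7%, where 32.4% were. A difference between the subunits was not tested. Members with a bacterial counterpart (37) had medians of -0.18, -0.38 and -0.27. Those classed as mitochondrion-specific components of the ribosome (23), Mrps18a and Mrpl58 among them, had -0.06, -0.33 and -0.33. A difference between these classes was not tested either.

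Some symbols do not name the subunit or role that they seem to. Mrps30 and Mrps18a belong to the large subunit. Mrps30 had 48.0 and 53.8 FPKM at 0 h, 33.2 and 34.8 after 24 h, 40.4 and 41.9 after 48 h, and 57.8 and 55.7 after 72 h, in a row that runs over several megabases and spans other genes, among them Itga1 and Emb. It fell at 24 h (-0.57, adjusted p = 0.00015) under every scaling, and at 48 h its -0.30 was 0.21 with a fixed total. Mrps18a had 42.4 and 39.8 FPKM at 0 h, 32.5 and 29.4 after 24 h, 29.3 and 26.2 after 48 h, and 31.9 and 30.8 after 72 h, with log2 fold changes of -0.40, -0.55 and -0.38. None of these Mrps18a calls was kept with a fixed total (-0.09, -0.06 and -0.04).

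Mrpl45, which anchors the large subunit to the inner membrane, was not called at any time, with 24.0 to 27.1 FPKM at 0 h, 24.0 to 24.9 after 24 h, 25.3 to 27.3 after 48 h, and 27.1 to 29.0 after 72 h. Mrpl58, a peptidyl-tRNA hydrolase that frees stalled ribosomes, had 31.6 and 35.9 FPKM at 0 h, 35.7 and 26.8 after 24 h, 26.2 and 26.8 after 48 h, and 29.1 and 30.0 after 72 h. Its single call, at 48 h (-0.33, adjusted p = 0.0358), was 0.16 with a fixed total and was lost without 0 h library b (-0.24), either 48 h library (-0.32 without a, -0.35 without b) or either 72 h library (-0.33). Mrpl3, close to the peptidyl transferase centre, had 18.8 and 16.5 FPKM at 0 h, 13.0 and 11.5 after 24 h, 9.99 and 10.2 after 48 h, and 14.5 and 13.0 after 72 h. It fell by 0.49, 0.75 and 0.34 at the 3 times, the last call being lost without 0 h library a (-0.25) or 72 h library b (-0.26).

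Promoters are shown for members that stand for the main patterns: Mrpl34, Mrps12 and Mrpl28, which fell at all 3 times, and Mrpl52 and Mrpl9, which rose. The sequences are from RefSeq on GRCm38.p6 and run from 250 bases before to 50 bases after the gene's start. They are Mrpl34 at chr8:71464676-71464975 (plus strand), Mrps12 at chr7:28741772-28742071 (minus strand), Mrpl28 at chr17:26123253-26123552 (plus), Mrpl52 at chr14:54426659-54426958 (plus) and Mrpl9 at chr3:94443086-94443385 (plus). Capitals mark matches on either strand to the palindromic motif of nuclear respiratory factor 1 (the run in capitals in Mrpl9, or the same with the base after GCGCA free), to CCGGAAG (ETS factors such as nuclear respiratory factor 2), AAGATGG (YY1) and CCAAT (nuclear factor Y).
Mrpl34: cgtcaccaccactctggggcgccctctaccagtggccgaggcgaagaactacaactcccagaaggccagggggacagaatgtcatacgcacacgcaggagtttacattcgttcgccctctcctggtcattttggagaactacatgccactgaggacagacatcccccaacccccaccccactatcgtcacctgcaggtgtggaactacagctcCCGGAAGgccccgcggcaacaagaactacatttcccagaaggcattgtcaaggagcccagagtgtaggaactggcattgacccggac
Mrps12: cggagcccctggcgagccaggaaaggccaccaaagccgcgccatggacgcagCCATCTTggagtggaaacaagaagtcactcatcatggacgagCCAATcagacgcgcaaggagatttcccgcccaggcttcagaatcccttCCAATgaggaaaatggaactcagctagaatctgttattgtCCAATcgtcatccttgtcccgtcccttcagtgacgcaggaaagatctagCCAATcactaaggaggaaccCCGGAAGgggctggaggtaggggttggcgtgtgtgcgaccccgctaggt
Mrpl28: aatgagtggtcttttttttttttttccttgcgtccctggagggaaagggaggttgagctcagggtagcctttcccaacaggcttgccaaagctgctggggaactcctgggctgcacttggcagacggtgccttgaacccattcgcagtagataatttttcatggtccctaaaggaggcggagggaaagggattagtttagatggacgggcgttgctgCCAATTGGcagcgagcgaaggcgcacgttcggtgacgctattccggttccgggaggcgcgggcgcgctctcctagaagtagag
Mrpl52: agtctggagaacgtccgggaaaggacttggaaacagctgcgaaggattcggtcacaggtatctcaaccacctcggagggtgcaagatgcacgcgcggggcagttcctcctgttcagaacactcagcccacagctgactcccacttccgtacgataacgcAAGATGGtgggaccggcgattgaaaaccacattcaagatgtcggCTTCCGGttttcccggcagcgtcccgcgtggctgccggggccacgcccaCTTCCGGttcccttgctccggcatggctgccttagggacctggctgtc
Mrpl9: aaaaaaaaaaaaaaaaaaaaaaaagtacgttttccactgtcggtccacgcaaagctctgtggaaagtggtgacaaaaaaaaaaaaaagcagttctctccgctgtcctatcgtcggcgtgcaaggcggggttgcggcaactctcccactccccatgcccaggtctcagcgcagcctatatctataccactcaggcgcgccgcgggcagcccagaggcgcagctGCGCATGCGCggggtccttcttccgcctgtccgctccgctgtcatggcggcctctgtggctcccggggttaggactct

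In these windows Mrpl34 holds 1 ETS match. Mrps12 holds 1 ETS match, 1 YY1 match and 4 CCAAT matches, and Mrpl28 holds 2 overlapping CCAAT matches on opposite strands. Mrpl52 holds 2 ETS matches and 1 YY1 match, and Mrpl9 holds 1 full match to the motif of nuclear respiratory factor 1. A match is a run of letters, not a bound site.

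Of the 62 members, 55 had a promoter in the RefSeq table. CCGGAAG was in 30.9% of these genes, where 19.7% of the genes of all rows tested and 9.93% of all genes with a promoter held it. AAGATGG was in 23.6%, where 8.26% and 7.28% held it, and the full motif of nuclear respiratory factor 1 in 5.45%, where 2.26% and 1.07% did. The E-box CACGTG was in 9.09%, near the 11.9% and 8.09% of the other sets, and CCAAT in 34.5%, where 41.7% and 41.1% held it. Members called lower at 72 h held CCAAT in 15 of 30 genes, and the other tested members in 4 of 24. CCGGAAG was in 8 of 30 and 8 of 24 of these, and AAGATGG in 7 of 30 and 6 of 24. These shares are descriptions of the letters in the windows and were not tested.

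The rest of the mitochondrial translation apparatus was read from gene lists. Their counts stand against the shares of all rows called higher and lower, which were 25.8% and 40.0% at 24 h, 28.5% and 42.1% after 48 h, and 37.6% and 32.4% after 72 h. Under a fixed total those shares were 39.3% and 26.5%, 49.0% and 24.1%, and 53.3% and 21.4%. Of 15 tested translation factors, 3 were called higher and 10 lower at 24 h, 1 and 11 after 48 h, and 0 and 11 after 72 h, with median log2 changes of -0.45, -0.75 and -0.76. With a fixed total the medians were -0.18, -0.45 and -0.46, and lower calls still outnumbered higher ones. Tufm, the elongation factor that brings aminoacyl-tRNA to the ribosome, had 54.7 and 58.1 FPKM at 0 h, 29.6 and 29.6 after 24 h, 21.5 and 22.8 after 48 h, and 22.1 and 22.6 after 72 h. Its log2 fold changes were -0.91, -1.31 and -1.30. The elongation factor Gfm1, in a row that spans another gene, fell by 0.91, 1.18 and 1.41, and the recycling factor Gfm2 by 0.79, 1.09 and 1.28. The rows of Tufm and Gfm2 partly overlap another coding gene. So do those of Fars2, Mettl15, Rpusd3, Gadd45gip1, Polrmt, Mterf1a and Hspd1, which are described below.

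Of 17 genes for mitochondrial aminoacyl-tRNA synthesis, 2 were higher and 11 lower at 24 h, 1 and 12 after 48 h, and 1 and 13 after 72 h (medians -0.48, -0.61 and -0.49). A fixed total gave medians of -0.20, -0.24 and -0.28. Gatb, a subunit of the enzyme that makes glutaminyl-tRNA, had 37.6 and 35.8 FPKM at 0 h, 17.5 and 16.6 after 24 h, 12.6 and 11.1 after 48 h, and 7.21 and 9.28 after 72 h, and its log2 fold change at 72 h was -2.04. Fars2, the phenylalanine enzyme, fell by 1.16 after 24 h, by 1.74 after 48 h and by 1.37 after 72 h.

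Of 25 genes for ribosome assembly and rRNA modification, 5 were higher and 11 lower at 24 h, 2 and 14 after 48 h, and 2 and 14 after 72 h (medians -0.32, -0.49 and -0.42). With a fixed total, 7 were higher and 6 lower at 24 h, 8 and 7 after 48 h, and 5 and 9 after 72 h, so the balance at the earlier times depended on the scaling. Mettl15, a methyltransferase for the small ribosomal RNA, had 6.15 and 8.00 FPKM at 0 h, 2.82 and 2.54 after 24 h, 1.64 and 1.01 after 48 h, and 1.78 and 2.18 after 72 h. Rbfa, a small subunit assembly factor, fell by 0.82, 0.96 and 0.47 (at 72 h -0.15 and not called with a fixed total), and the pseudouridine synthase Rpusd3 had log2 fold changes of -0.77, -1.35 and -1.12. Of 2 mitoribosome proteins without an Mrpl or Mrps symbol, Gadd45gip1 of the large subunit fell by 0.47, 1.28 and 0.77, of which the first was -0.18 and not called with a fixed total, while Ptcd3 of the small subunit rose at 24 h alone (0.53, and 0.32 without 24 h library a).

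Genes for maintenance and transcription of mitochondrial DNA moved both ways, with 3 of 11 higher and 3 lower at 24 h, 4 and 5 after 48 h, and 1 and 5 after 72 h. With a fixed total 6 were higher at each time, and 2, 2 and 4 lower. The mitochondrial RNA polymerase Polrmt fell by 0.64 at 24 h and by 1.03 at 72 h and the topoisomerase Top1mt by 0.49, 0.94 and 0.72, whereas Mterf1a, at 0.443 and 0.560 FPKM at 0 h, rose by 1.37 at 24 h and 0.92 at 48 h. Of 9 genes of the mitochondrial unfolded protein response, 1 was higher and 5 lower at 24 h, 1 and 7 after 48 h, and 2 and 7 after 72 h. The chaperonin Hspd1 had 189 and 214 FPKM at 0 h and 83.0 and 80.4 after 72 h (-1.29), and Clpx, of the matrix protease, fell by 1.71 at 72 h. Ddit3, a stress-induced transcription factor in a row that partly overlaps another gene, went the other way. Ddit3 had 2.27 and 2.46 FPKM at 0 h, 23.3 and 20.9 after 24 h, 16.9 and 16.0 after 48 h, and 14.1 and 15.7 after 72 h, with log2 fold changes of 2.78, 2.38 and 2.24, the largest in this list.

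Of 7 regulators of mitochondrial biogenesis, 2 were higher and 3 lower at 24 h, 4 and 3 after 48 h, and 3 and 2 after 72 h. The coactivator Ppargc1a had 9.92 and 9.57 FPKM at 0 h, 4.89 and 4.68 after 24 h, 4.66 and 5.96 after 48 h, and 3.91 and 4.79 after 72 h (-0.89, -0.77 and -1.01). Nrf1, nuclear respiratory factor 1 itself, had 2.12 and 2.31 FPKM at 0 h, 0.795 and 0.800 after 24 h, 1.08 and 0.913 after 48 h, and 2.18 and 1.65 after 72 h. Nrf1 fell at 24 h (-0.84) and 48 h (-0.69), and its 72 h value of -0.15 did not pass (adjusted p = 0.272). Myc, which can drive ribosome genes, had 1.25 and 0.974 FPKM at 0 h and 7.60 and 8.06 after 72 h, a log2 fold change of 2.07.

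Cytosolic ribosomal proteins, which build the ribosomes outside mitochondria, were mostly called higher. Of 59 tested, 51 were called higher and 1 lower at 24 h, 51 and 0 after 48 h, and 56 and 1 after 72 h, while the mitochondrial ones had median log2 changes of -0.17, -0.37 and -0.29 and the cytosolic ones 0.78, 0.76 and 1.01. The list was set by symbol pattern and includes like-named genes such as Rpl3l and Rps27l. The row called lower at 24 and 72 h was Rpl3l, with 1.76 and 1.13 FPKM at 0 h. Rps18, in a row that spans another gene, had log2 fold changes of 0.85, 1.06 and 1.90. Rpl12, in a row that partly overlaps another gene, had 113 and 102 FPKM at 0 h and 365 and 322 after 24 h. It had 385 and 350 FPKM after 48 h, and 386 and 392 after 72 h. Rps24, with a row that overlaps no other coding gene, had 171 and 170 FPKM at 0 h, 612 and 548 after 24 h, 527 and 531 after 48 h, and 515 and 482 after 72 h. The cytosolic medians were above that of all rows on each of the 5 scalings, by 0.90 to 1.07 after 24 h, 0.89 to 1.28 after 48 h and 0.92 to 1.40 after 72 h.

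**Figure D4:**
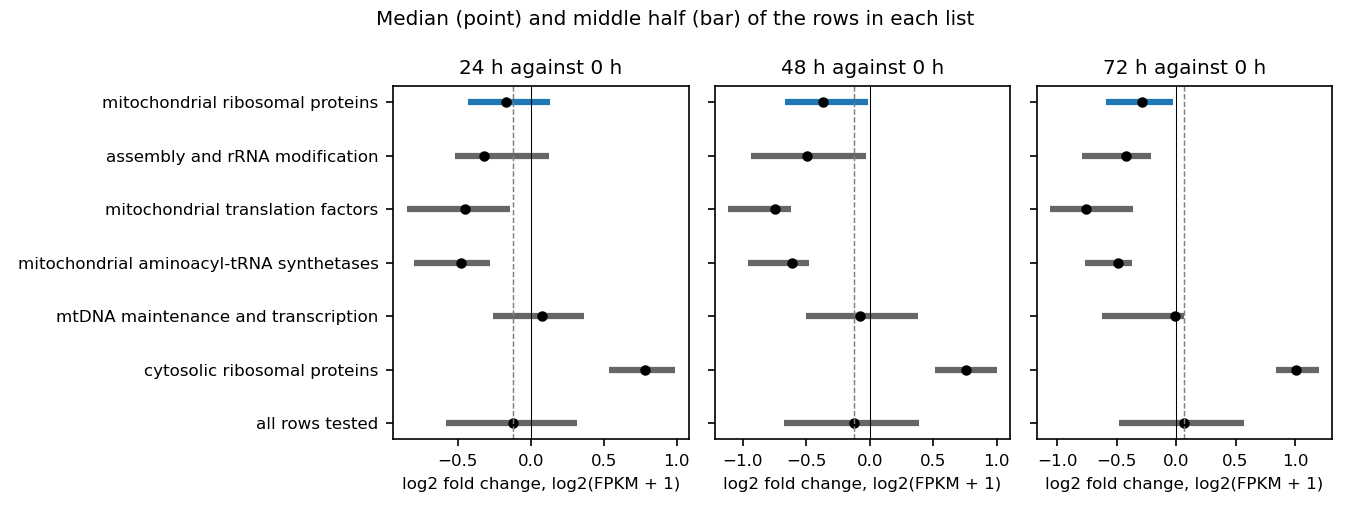
Median log2 fold change (point) and the range of the middle 50% (bar) of the rows in each gene list for 24, 48 and 72 h against 0 h, with all rows tested at the foot and their median as a dashed line. The mitochondrial ribosomal proteins lie at -0.17, -0.37 and -0.29, to the left of the cytosolic ribosomal proteins at 0.78, 0.76 and 1.01.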

How the data were processed

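The linear RNA values were FPKM, as the authors deposited them and per the file headers, each row holding a gene and each column a library. A second table of back-spliced circular RNA held whole-number counts, deposited by the authors without normalization; it was used only to look for circles within member genes, and 8 further columns of it were not used here. Per the submitters' processing notes the tools were Bowtie 0.12.2, TopHat2 and Cufflinks and the genome mm10; their roles are not given there. Columns are lettered a and b while labels number the replicates, and a column was therefore placed in a time group but not tied to a numbered sample. Of 21874 rows, 19742 matched a symbol. Row spans were set against RefSeq genes on GRCm38.p6; a row spans a gene when it covers at least 90% of it. Strand handling was not given in the sources used here, so overlapping genes cannot be told apart.

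Tested rows had 1 FPKM or more in 2 or more of 8 libraries. The test was limma 3.58.1 in R 4.3.3 (empirical Bayes with a trend, robust) on log2(FPKM + 1), with all 4 groups fitted together, 2-sided, with Benjamini-Hochberg adjustment over all 10757 rows and a threshold of 0.05. The pseudocount of 1 understates the change of low rows. The procedure was tested on simulated data. Low values were not whole multiples of 1 read, so reads could not be recovered. Alternatives covered 4 other scalings, the pseudocount, filters, the empirical Bayes options, the groups in the fit, row width and leaving out each library. Named members were, for each comparison with 0 h, the 6 largest called rises and falls with libraries that do not overlap, the 6 highest and 3 lowest by mean FPKM, the 3 largest each way between successive times, those called in opposite directions at different times, 12 chosen for their roles and those not tested; for other lists, up to 3 by smallest p, of which 1 is not reported here. Gabpa, Gabpb1, Yy1, Ppargc1b, Rpl3l and Rps27l are named outside this rule. The members and lists were chosen with earlier results of these data known.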

Additional observations from a re-analysis of the deposited data

Results flagged for a closer look

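Of the tested members, 5 were called in opposite directions at different times against 0 h, and the difference between those times passed limma's test with Benjamini-Hochberg adjustment. For 4 of them, higher at 24 h and lower at 72 h, the log2 fold change of 72 h against 24 h was -1.14 for Mrpl47 (adjusted p = 0.000106), -0.91 for Mrps22 (4.3e-05), -0.86 for Mrps31 (1.61e-05) and -0.51 for Mrps33 (0.00112). The 72 h libraries were below the 24 h libraries in each case, and these 4 differences were called under all 5 scalings. Against 0 h, the 4 rises at 24 h were also called under all 5 scalings. Of the 4 falls at 72 h, only that of Mrps31 was. The fifth was Mrps34, lower at 48 h and higher at 72 h, with a log2 fold change of 72 h against 48 h of 1.07 (adjusted p = 6.46e-05) in a row that also holds Nme3.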

How the results depend on the processing

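No paired analysis was possible because the columns carry letters in place of the labels' replicate numbers, so the planned fit with a replicate block was not run. Of the summary values under alternatives, 194 kept their size within the limits used and 34 did not. Restricting rows to those within 2000 bases of their own gene tests fewer members, and the calls were fewer (15, 23 and 20 at 24, 48 and 72 h against 0 h, 10 at 48 h against 24 h, 10 at 72 h against 48 h and 13 at 72 h against 24 h). The same holds for rows that overlap no other coding gene, an alternative chosen after seeing the data (13, 18, 16, 7, 7 and 14). At 48 h against 24 h there were 12 calls with a fixed total and 10 without mitochondrially encoded rows in it. Leaving out 1 library gave 12 to 33 calls there. At 72 h against 24 h an equal median gave 44. Apart from the fixed total at 48 h against 24 h, the shares of all rows called under these alternatives are not given here. Whether the shifts are particular to the members therefore cannot be read from these counts. The cause of these shifts was not tested.

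The members' median minus that of all rows against 0 h was -0.049, -0.241 and -0.354 at the 3 times in order. It was -0.066 for 72 h against 48 h and -0.295 for 72 h against 24 h. With no filter it was -0.171 at 24 h, -0.376 at 48 h, 0.089 at 72 h against 48 h and -0.173 at 72 h against 24 h. After quantile normalisation it was 0.071, -0.135 and -0.222 against 0 h and -0.189 at 72 h against 24 h. With rows restricted in this way it was -0.317 and -0.510 at 48 and 72 h, and -0.439 for 72 h against 24 h. Over rows that overlap no other coding gene it was -0.340 at 48 h, -0.457 at 72 h, -0.164 at 72 h against 48 h and -0.451 at 72 h against 24 h. Leaving out 1 library moved the 24 h value to between -0.076 and 0.027, the upper end being without 0 h library a.

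Of the named genes' values, 2676 kept direction and call, 108 lost the call and 22 turned round, all 22 under another scaling. With a fixed total the log2 fold changes that turned were Mrps24 0.03 and Mrpl23 0.02 at 24 h; Mrpl42 0.03, Mrpl20 0.27, Mrps30 0.21, Mrpl44 0.10 and Mrpl58 0.16 at 48 h; and Mrpl20 0.17 and Mrps33 0.08 at 72 h. Without mitochondrially encoded rows in the total they were Mrpl20 0.20, Mrps30 0.13, Mrpl44 0.03 and Mrpl58 0.09 at 48 h, and Mrpl20 0.11 and Mrps33 0.02 at 72 h. After quantile normalisation they were Mrps24 0.01 at 24 h, Mrpl20 0.40, Mrps30 0.13 and Mrpl58 0.02 at 48 h, and Mrpl20 0.38, Mrps33 0.00 and Mterf1a -0.00 at 72 h. FPKM does not give depth, so no limit from counting error can be set.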

Other observations

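None of the 2163 circular RNAs in the second table lay inside a mitochondrial ribosomal protein gene.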
